A study of Mus musculus with 24 samples.

Results

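The cytosolic ribosomal protein genes are described here in mouse gastrocnemius muscle. They were taken from the count table by name alone, as protein-coding genes called Rpl or Rps with a number (with or without a final a, x or l), Rplp0 to Rplp2 and Rpsa. This gave 81 of the 43346 genes in the table, 49 of the large and 32 of the small subunit. After the filter on low counts, 79 of the 81 stood among the 17773 genes tested. Rpl10l had 0 counts in every library and Rpl39l was too low to test, with at most 0.172 CPM. CPM is the raw count over the library size in M, scaled by the TMM factor.

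The study sequenced poly(A) RNA of the gastrocnemius, a calf muscle, from C57BL6 mice. There were 4 groups of 6 mice: males injected with LLC1 (mLLC), males given vehicle (mPBS), females injected with LLC1 (fLLC) and females given vehicle (fPBS). LLC1 is the Lewis lung carcinoma line of mouse tumour cells, given as a subcutaneous injection to mice aged 7 weeks and left to grow for 3 weeks, and the vehicle was phosphate-buffered saline. Within sex, the comparison of LLC1 with vehicle asks how muscle of tumour-bearing mice differs, and the 2 sexes ask whether that difference is shared. No transgene or induced mutation was named in any group, and the LLC1 mice carried an implanted cell line, not a tumour that arose in the animal. Each group ran on a sequencing lane of its own, so that lane and group cannot be told apart in any comparison. Mice are called by the numbers in their titles, as in mLLC 1-5.

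Cytosolic ribosomal proteins assemble with ribosomal RNA into the small subunit, which decodes the messenger RNA, and the large subunit, which joins the amino acids. Their messenger RNAs carry a 5′ terminal oligopyrimidine (5′TOP) tract, a run of C and T that begins at the first transcribed base and through which mTORC1 and the binding protein LARP1 control their translation and stability. In skeletal muscle, ribosome number is one determinant of how much protein a fibre can make, and adult muscle also expresses Rpl3l, a striated-muscle paralogue of Rpl3.

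The bases around the start site are shown first, because the 5′TOP tract is the feature the genes are known for. A run of at least 6 C or T bases was searched on the gene's own strand, from 15 bases before to 15 bases from each RefSeq start (GRCm38.p6). Of the 60 members found in the RefSeq promoter table, 37 held such a run (61.7%), against 8833 of all 27025 genes in it (32.7%). Runs of members reached 21 bases, in Rpl7a. The run is in capitals in the 4 windows below. These windows come from Rps27 (largest LLC1 change in males), Rps6 (S6 kinase substrate), Rplp2 (stalk protein) and Rps18 (run of 11 bases). They lie at chr3:90213634-90213663 on the minus strand (Rps27), chr4:86857353-86857382 on the minus strand (Rps6), chr7:141447636-141447665 on the plus strand (Rplp2) and chr17:33955651-33955680 on the minus strand (Rps18).
Rps27: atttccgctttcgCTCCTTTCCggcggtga
Rps6: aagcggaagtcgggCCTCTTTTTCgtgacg
Rplp2: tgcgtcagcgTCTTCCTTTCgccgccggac
Rps18: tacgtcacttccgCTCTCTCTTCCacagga

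Other members held no run of that length in the window. They are shown because Rpl11 and Rps28 were among the members with the largest change in males, Rplp0 differed between the sexes, and Rpl3l had the one negative value in males. Their windows lie at chr4:136053379-136053408 on the minus strand (Rpl11), chr17:33824548-33824577 on the minus strand (Rps28), chr5:115559452-115559481 on the plus strand (Rplp0) and chr17:24727811-24727840 on the plus strand (Rpl3l, the first of its RefSeq starts).
Rpl11: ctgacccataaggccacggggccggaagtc
Rps28: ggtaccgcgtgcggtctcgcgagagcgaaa
Rplp0: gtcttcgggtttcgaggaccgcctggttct
Rpl3l: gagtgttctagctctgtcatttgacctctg
A match or its absence describes these letters in these windows only. In males, 32 of the 36 tested members with a run rose with LLC1 (median log2 fold change 0.35) and so did 20 of the 22 tested members without one (median 0.32). The other 21 tested members were not in the promoter table, and 18 of them rose, with a median of 0.33. Of all genes tested, 19.5% rose in males.

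Total counts per library ran from 26.2 to 47.4 M, and the 10 most abundant genes held 21.5 to 28.3% of them. All 8 muscle fibre markers were present, with summed levels of 133563 to 201488 CPM in mLLC, 162575 to 210539 CPM in mPBS, 137085 to 209026 CPM in fLLC and 160359 to 205350 CPM in fPBS. Markers of other cells moved with LLC1: 11 of 11 tested neutrophil markers, of 13 listed, and 7 of 7 erythroid markers rose in both sexes. A marker near 0 in vehicle mice can pass the filter on low counts through the LLC1 mice alone. The neutrophil count is therefore no result by itself, and the summed levels of all listed markers are given. Neutrophil markers summed to 63.8 to 182 CPM in mLLC against 1.94 to 4.56 CPM in mPBS, where Ltf and Elane were at 0, and to 64.5 to 175 CPM in fLLC against 2.36 to 4.79 CPM in fPBS. Erythroid markers summed to 1210 to 4293 CPM in mLLC against 426 to 1082 CPM in mPBS, and to 1233 to 19978 CPM in fLLC, where fLLC 2-4 was the highest, against 474 to 1028 CPM in fPBS. Their part in the ribosomal protein results was not tested. Epithelial markers, which would mark carcinoma cells, summed to at most 4.03 CPM in any library. Beside these marker counts, 19.5% of all genes tested rose and 16.8% fell in males, and 4.97% rose and 4.95% fell in females. Muscle fibre markers fell in 3 of 8 cases in males and 2 of 8 in females (1 without fLLC 2-3). Of the other lists, in males 3 of 13 macrophage (5 without mPBS 1-3) and 2 of 8 endothelial markers rose, while 6 of 8 fibro-adipogenic and 3 of 8 endothelial markers fell and 1 fibro-adipogenic marker rose. The library mLLC 1-4 stood apart in lymphocyte markers. Its T and NK cell markers summed to 18.1 CPM, against 0.631 to 1.52 CPM in the other mLLC mice and 0.661 to 1.40 CPM in mPBS. Its B cell markers summed to 73.5 CPM, against 9.63 to 22.3 CPM in the other mLLC mice and 28.4 to 58.9 CPM in mPBS. With it 4 of 6 B cell markers were called higher and 1, Ighm, lower in males, and 1 of 2 T and NK cell markers higher, while without it 1 B cell marker was higher and 1 lower and 0 T and NK cell markers passed. Without mPBS 1-2 or mPBS 2-4, 2 B cell markers were higher, and without mPBS 1-4, 2-4 or 2-5, 0 T and NK cell markers passed. Of the ribosomal protein genes, 68 rose in males without mLLC 1-4. In females 3 of 8 endothelial markers and 1 of 8 fibro-adipogenic markers rose and 1 of 8 fibro-adipogenic markers fell (2 without fLLC 1-5 or fPBS 2-3). Macrophage markers passed in females in 0 of 13 cases, with 1 or 2 higher in 9 of the 24 fits that left out 1 library. No adipocyte (6 tested) or epithelial (3 tested) marker passed in either sex. In bulk muscle, fewer cells of a type and less RNA per cell cannot be told apart.

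The ribosomal protein messages were lowest in vehicle-treated males. The 81 genes together took 1.20, 1.30 and 1.65% of counts in mLLC (lowest, median and highest mouse), against 0.914, 1.04 and 1.15% in mPBS. In females they took 1.39, 1.41 and 1.48% in fLLC, against 1.19, 1.37 and 1.60% in fPBS. The male groups did not overlap, the fLLC mice lay inside the fPBS range, and every mPBS mouse lay below every fPBS mouse. These shares are of raw counts, without the TMM factor. As summed CPM the male groups stayed apart, at 12442 to 15811 CPM in mLLC and 9726 to 11791 CPM in mPBS. The vehicle groups then overlapped, with 11548 to 15125 CPM in fPBS. The group means were 1.34 ± 0.161% in mLLC, 1.04 ± 0.0867% in mPBS, 1.42 ± 0.0337% in fLLC and 1.37 ± 0.173% in fPBS (SD, n = 6 each). Gene by gene, the mPBS mean was the lowest of the 4 for 78 of the 79 tested members, while the highest mean was in fLLC for 31, in fPBS for 25 and in mLLC for 23.

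**Figure D1:**
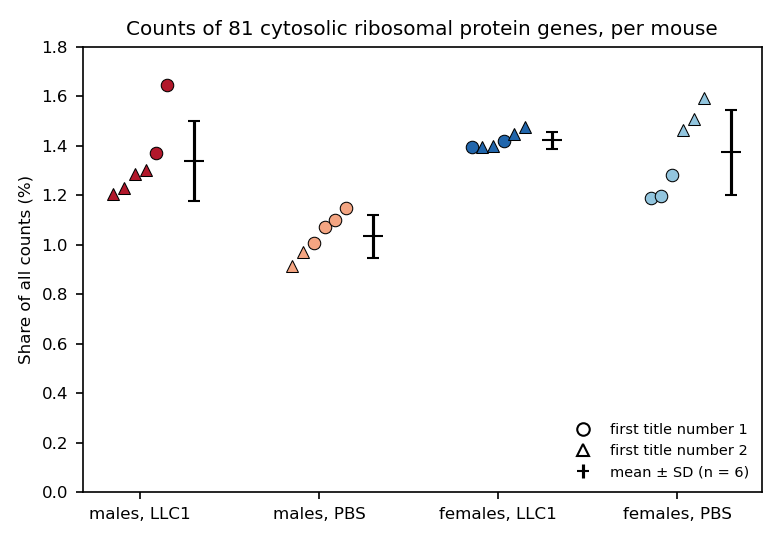
Share of all counts held by the 81 ribosomal protein genes, in percent, for each of the 24 mice in the groups mLLC, mPBS, fLLC and fPBS. All 6 mPBS mice lie at or below 1.15%, under the lowest mouse of each other group. The shares are of raw counts, and as TMM-scaled summed CPM mPBS and fPBS overlap.

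The first number in the titles also went with the share in vehicle-treated females. The 3 fPBS mice with titles beginning in 1 had shares of 1.19 to 1.28%, and the 3 beginning in 2 had 1.47 to 1.60%. In fLLC the ranges were 1.39 to 1.42% (n = 2) and 1.39 to 1.48% (n = 4). As summed CPM these fLLC ranges were 12810 to 13067 and 13019 to 15043 CPM, with fLLC 2-4 (14988) and fLLC 2-5 (15043) the highest. In males the order was the other way: 1.37 to 1.65% (n = 2) against 1.20 to 1.30% (n = 4) in mLLC, and 1.01 to 1.15% (n = 4) against 0.914 to 0.972% (n = 2) in mPBS. Within each title number the male groups still did not overlap. What the number stands for is not given in the labels.

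In males with LLC1, ribosomal protein messages of both subunits were higher than in vehicle-treated males, most of them by a small factor. Of the 79 members tested, 70 rose and 0 fell, with a median log2 fold change of 0.33, at an adjusted p under 0.05 in edgeR's quasi-likelihood test. Over all genes tested, 19.5% rose and 16.8% fell, with a median of 0.01. The large subunit had 44 of 47 higher (median 0.34) and the small subunit 26 of 32 (median 0.32). In 42 members the 6 mLLC mice all lay above the 6 mPBS mice, against 4.97% of all genes tested, and in 0 members all lay below, against 5.34%. The mouse mLLC 1-5 was the highest of its group in the summed share. Without it 59 members rose, with a median of 0.29, and those 59 were called in the fit without any other single library too.

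**Figure D2:**
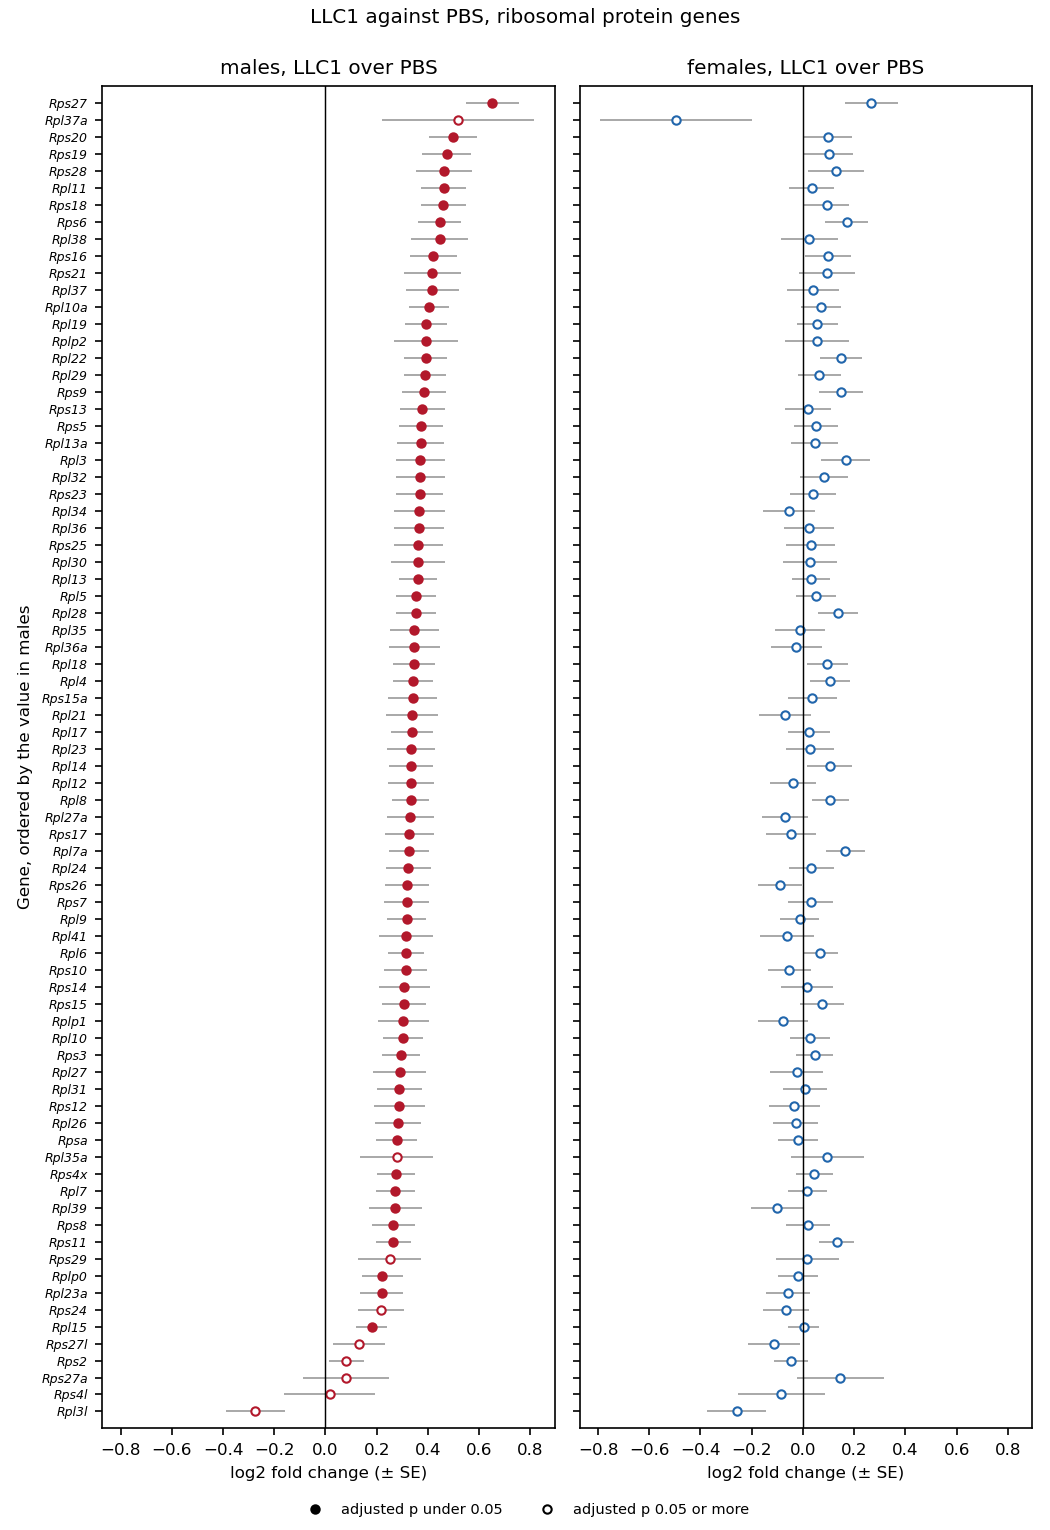
Log2 fold change of LLC1 over vehicle for the tested members named here, in males (left) and in females (right), ordered by the value in males. Bars are standard errors and filled points had an adjusted p under 0.05, and in males Rpl3l is the one point below 0.

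Rps27, a zinc-finger protein of the small subunit (chromosome 3, 90212725 to 90213615, mm10), had the largest called change in males. Its level was 124, 148 and 205 CPM in mLLC (lowest, median, highest) against 86.0, 94.7 and 110 CPM in mPBS, and 126, 135 and 148 CPM in fLLC against 91.7, 115 and 129 CPM in fPBS. The male groups were apart, and the female groups overlapped by a few CPM. The log2 fold change was 0.65 ± 0.10 (SE, edgeR adjusted p = 9.01e-05) in males and 0.27 ± 0.10 (adjusted p = 0.1) in females.

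Rps20, a protein of the small subunit head, stood at 200, 213 and 280 CPM in mLLC against 137, 159 and 178 CPM in mPBS, and at 183, 191 and 218 CPM in fLLC against 157, 184 and 209 CPM in fPBS. The male groups did not overlap and the female groups did. Its change in males was 0.50 ± 0.09 (edgeR adjusted p = 0.00039).

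Rps19, whose human counterpart is mutated in Diamond-Blackfan anaemia, had 100, 107 and 139 CPM in mLLC against 67.8, 84.3 and 90 CPM in mPBS. In females it had 107, 116 and 122 CPM in fLLC against 90.1, 106 and 131 CPM in fPBS. All mLLC mice exceeded all mPBS mice, and the fLLC mice lay within the fPBS range. The change in males was 0.47 ± 0.09 (edgeR adjusted p = 0.00068).

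Rps28, a small subunit protein near the exit of the messenger RNA channel, had 65.6, 69.8 and 96.9 CPM in mLLC against 42.7, 57.7 and 62.0 CPM in mPBS. In females it had 69.8, 77.8 and 84.5 CPM in fLLC against 59.0, 69.7 and 83.1 CPM in fPBS. Every mLLC mouse was above every mPBS mouse. The change in males was 0.46 ± 0.11 (edgeR adjusted p = 0.0024).

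Rpl11, which with Rpl5 and 5S ribosomal RNA forms a particle that binds Mdm2, had 114, 129 and 174 CPM in mLLC against 83.7, 98.7 and 105 CPM in mPBS. In females it had 114, 121 and 130 CPM in fLLC against 101, 120 and 135 CPM in fPBS. The males separated and the fLLC mice lay inside the fPBS range. The change in males was 0.46 ± 0.09 (edgeR adjusted p = 0.00047).

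Rps6, the small subunit protein phosphorylated by S6 kinase, had 150, 162 and 214 CPM in mLLC against 107, 127 and 137 CPM in mPBS, and 160, 171 and 174 CPM in fLLC against 129, 148 and 170 CPM in fPBS. The male groups did not overlap. It rose by 0.45 ± 0.08 in males (edgeR adjusted p = 0.00041).

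**Figure D3:**
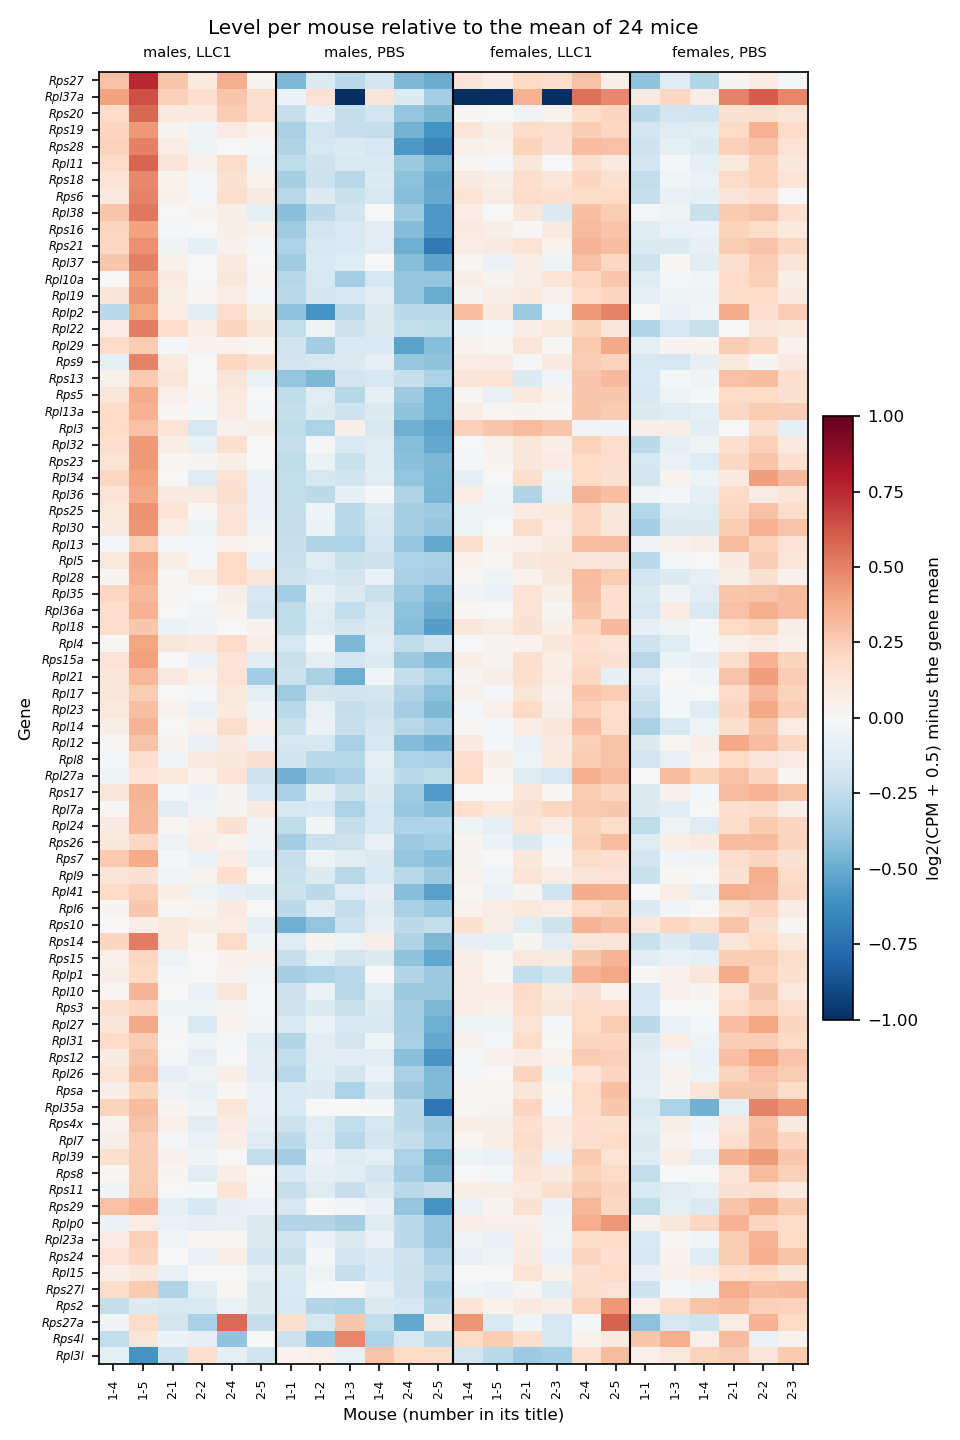
Level of the tested members named here in each of the 24 mice, as log2(CPM + 0.5) relative to the member's mean over all mice, with groups side by side and the colour scale ending at 1 in either direction. The mPBS group has the lowest mean for 78 of all 79 tested members, and Rpl37a has single libraries beyond the scale.

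The ribosomal stalk recruits the elongation factors and is built from Rplp0, Rplp1 and Rplp2. Rplp0 (chromosome 5, 115559467 to 115563727, mm10) had 500, 526 and 581 CPM in mLLC against 424, 452 and 505 CPM in mPBS, and 540, 578 and 745 CPM in fLLC against 569, 632 and 704 CPM in fPBS. The male groups overlapped slightly, and every mPBS mouse lay under every fPBS mouse. Its LLC1 change in males was 0.22 ± 0.08 (edgeR adjusted p = 0.029), which did not pass without mLLC 1-5 (adjusted p = 0.0708), mLLC 2-1 (0.0519), mPBS 1-3 (0.0618) or mPBS 2-5 (0.0625).

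Rplp1 had 288, 297 and 337 CPM in mLLC against 226, 238 and 294 CPM in mPBS, and 247, 302 and 383 CPM in fLLC against 295, 323 and 380 CPM in fPBS. Only the highest mPBS mouse reached into the mLLC range. Its change in males was 0.30 ± 0.10 (edgeR adjusted p = 0.018). Rplp2 had 73.5, 92.5 and 116 CPM in mLLC against 58.0, 73.0 and 80.2 CPM in mPBS, and 68.5, 101 and 125 CPM in fLLC against 84.7, 94.0 and 114 CPM in fPBS. Both pairs of groups overlapped. It rose by 0.39 ± 0.12 in males (edgeR adjusted p = 0.017), but not past the threshold without mLLC 1-5 (adjusted p = 0.0579).

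Rpsa, a small subunit protein also known as a laminin receptor, had 358, 373 and 440 CPM in mLLC against 277, 320 and 343 CPM in mPBS. In females it had 381, 395 and 464 CPM in fLLC against 351, 418 and 455 CPM in fPBS. The male groups were apart and the female groups overlapped. The change in males was 0.28 ± 0.08 (edgeR adjusted p = 0.0088).

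The 9 members that did not pass in males were Rpl37a, Rpl35a, Rps29, Rps24, Rps27l, Rps2, Rps27a, Rps4l and Rpl3l. Rpl37a had a log2 difference of 0.52 ± 0.30 (adjusted p = 0.18), although its 6 mLLC mice all lay above its mPBS mice. Its raw counts were 1113 in mPBS 1-3, 1346 in fLLC 1-4, 1329 in fLLC 1-5 and 1343 in fLLC 2-3, against 1921 to 5392 in the other 20 libraries. The differences in males were 0.28 for Rpl35a (adjusted p = 0.13), 0.25 for Rps29 (0.11), 0.22 for Rps24 (0.064) and 0.13 for Rps27l (0.32). Rps24 passed without mLLC 2-5 (adjusted p = 0.033) or mPBS 1-2 (0.044). They were 0.08 for Rps2 (0.37), 0.08 for Rps27a (0.74), which encodes ubiquitin fused to a ribosomal protein, and 0.02 for Rps4l (0.96).

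Rpl3l was the one tested member with a negative value in males. It is most expressed in heart and skeletal muscle, where it takes the place of Rpl3 near the catalytic centre of the large subunit. Rpl3l (chromosome 17, 24727820 to 24736143, mm10) had 223, 306 and 381 CPM in mLLC against 323, 368 and 413 CPM in mPBS, and 264, 290 and 422 CPM in fLLC against 352, 383 and 406 CPM in fPBS. Both pairs of groups overlapped. The lowest mouse was an LLC1 mouse in each sex, and in females the highest, fLLC 2-5, was an LLC1 mouse too. The log2 difference was -0.27 ± 0.12 in males (edgeR adjusted p = 0.065) and -0.26 ± 0.12 in females (adjusted p = 0.16). It passed in males without mLLC 2-2 (adjusted p = 0.0183), mPBS 1-3 (0.0479) or fLLC 2-5 (0.0408), and in females without fLLC 2-5 (0.0355). It also passed as lower in males with upper-quartile scaling (0.0445), length offsets (0.0241) and limma-voom with sample weights (0.0207), and with those weights in females (-0.38, adjusted p = 0.00245). It passed too with the title number as a replicate block, in males at -0.35 on the full number (adjusted p = 0.0347) and -0.34 on the first number (0.0284), and in females at -0.54 on the full number (0.00724). The labels do not say whether the numbers pair the mice. The fit on the full number rests only on mice whose number occurs in both groups of a sex.

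Rpl3 (chromosome 15, 80077794 to 80091868, mm10) had 56.5, 68.5 and 78.6 CPM in mLLC against 44.1, 52.4 and 66.8 CPM in mPBS, and 62.5, 76.4 and 79.6 CPM in fLLC against 59.0, 65.1 and 71.9 CPM in fPBS. The groups overlapped in both sexes. Its log2 change was 0.37 ± 0.10 in males (edgeR adjusted p = 0.0043), and the difference in females was 0.17 ± 0.09 (adjusted p = 0.28).

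The ratio of Rpl3l to Rpl3, both in CPM per kilobase of the gene lengths in the count table, was 5.40, 8.30 and 12.8 in mLLC against 9.18, 13.4 and 16.6 in mPBS. It was 6.30, 7.21 and 12.8 in fLLC against 9.77, 11.2 and 12.9 in fPBS. The groups overlapped in both sexes. In females fLLC 2-4 (11.6) and fLLC 2-5 (12.8) lay within the fPBS range and the other 4 fLLC mice lay below it. The mean log2 ratio differed by -0.66 in males (exact permutation test, two-sided p = 0.0108, adjusted over both sexes 0.0216) and by -0.44 in females (exact permutation p = 0.0498, adjusted 0.0498). The ratio was tested after the values of both genes had been seen. Its size depends on the length used: over all mice Rpl3l averaged 209 and Rpl3 20.7 CPM per kilobase of the table's length, and 250 and 47.9 CPM per kilobase of the principal transcript. Rpl3l shares no 50-base sequence with another gene, while 85.6% of those of Rpl3 also occur in other genes.

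**Figure D4:**
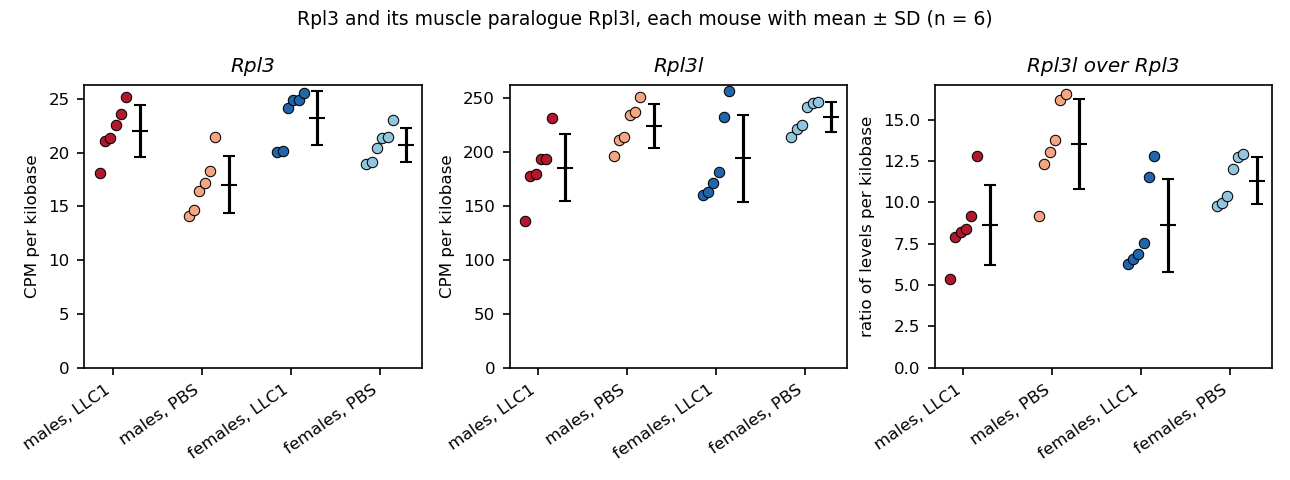
Levels of Rpl3 and of Rpl3l in CPM per kilobase and the ratio of Rpl3l to Rpl3 in each mouse, by group, with the mean and SD of the 6 mice. The ratio has medians of 8.30 in mLLC, 13.4 in mPBS, 7.21 in fLLC and 11.2 in fPBS.

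Of the other paralogue pairs, Rpl10 and Rpl10l could not be compared. Rpl10, an X-linked large subunit protein needed for the last steps of subunit maturation, had 263, 276 and 348 CPM in mLLC against 212, 232 and 262 CPM in mPBS, and 282, 292 and 314 CPM in fLLC against 243, 291 and 332 CPM in fPBS. The male groups were apart by about 1 CPM, and it rose by 0.30 ± 0.08 in males (edgeR adjusted p = 0.0046). Its testis paralogue Rpl10l had no counts.

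Rpl39, which lines the exit tunnel of the large subunit, had 64.1, 77.3 and 91.0 CPM in mLLC against 54.0, 65.3 and 73.0 CPM in mPBS. In females it had 72.5, 78.9 and 91.5 CPM in fLLC against 69.8, 86.5 and 103 CPM in fPBS. All pairs of groups overlapped. The change in males was 0.27 ± 0.10 (edgeR adjusted p = 0.041), and it did not pass without mLLC 1-4 (adjusted p = 0.0726), mLLC 1-5 (0.113), mLLC 2-1 (0.0681), mLLC 2-4 (0.0567), mPBS 1-1 (0.082), mPBS 2-4 (0.0782) or mPBS 2-5 (0.102).

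Rps4x, X-linked in mouse, had 263, 291 and 344 CPM in mLLC against 219, 241 and 262 CPM in mPBS, and 294, 308 and 318 CPM in fLLC against 260, 298 and 347 CPM in fPBS. It rose by 0.28 ± 0.07 in males (edgeR adjusted p = 0.0053). Its paralogue Rps4l stood at 1.07, 1.48 and 1.76 CPM in mLLC, 1.05, 1.26 and 2.41 CPM in mPBS, 1.33, 1.78 and 1.98 CPM in fLLC and 1.48, 1.84 and 2.17 CPM in fPBS, with all groups overlapping. Rps27l, a paralogue of Rps27 that is a known p53 target, had 40.3, 48.3 and 59.8 CPM in mLLC against 39.1, 45.7 and 49.7 CPM in mPBS, and 46.3, 49.5 and 56.2 CPM in fLLC against 43.1, 55.3 and 64.0 CPM in fPBS. It did not pass in either sex.

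Per kilobase of the table's length, over all mice, the highest members were Rplp1 (599 CPM per kilobase), Rps27 (486) and Rpl4 (436). The lowest tested members were Rps4l (1.70), Rps15a (20.3) and Rpl3 (20.7). With the principal transcript's length Rps15a stood at 198 CPM per kilobase, so that its place in the order rests on the length used. Rpl4, a large subunit protein that reaches into the exit tunnel, held 4.80% of all counts of the members.

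In females no member passed in the main edgeR comparison of LLC1 with vehicle. By edgeR 0 of 79 were higher and 0 lower, where 4.97% of all genes tested were higher and 4.95% lower. In no member did the 6 fLLC mice all lie above or all below the 6 fPBS mice, against 4.05% and 2.5% of all genes tested. At an unadjusted edgeR p under 0.05 there were 3 members, against 25.5% of all genes tested. DESeq2 called 0 members and 2262 of 17773 genes, and limma-voom called 0 members and 1810 genes. With sample weights, limma-voom called Rps27 and Rpl3 higher and Rpl37a and Rpl3l lower, and 4006 of all 17773 genes in either direction. The median log2 difference was 0.03 (-0.02 by limma-voom with sample weights), with 54 values above 0 and a range of -0.49 to 0.27, the lowest in Rpl37a and the highest in Rps27. Rps27 passed without mLLC 1-5 (adjusted p = 0.0377) and with the female groups fitted alone (0.0441). With an offset for transcript length in each library, an alternative chosen after the data had been seen, 28 members were higher in females (all genes 5.37%) and the median was 0.17.

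The test of the difference between the sexes in the LLC1 effect called no member. By edgeR 0 of 79 members and 0 of 17773 genes passed (0% of all genes tested), the smallest adjusted p over all genes being 0.095. DESeq2 called 0 members and 57 of 17773 genes. At an unadjusted p under 0.05 there were 62 of the 79 members and 12.3% of all genes. The male effect minus the female effect was above 0 for 77 members, with a median of 0.31. With the offset for transcript length the median was 0.18 and 0 members passed. Among 877 other tested protein-coding genes with principal transcripts under 1000 bases, 619 values were above 0, with a median of 0.12. With the first title number as a block, 47 members passed as higher, against 0.67% of all genes tested. So the calls in males and their lack in females do not by themselves show a difference between the sexes.

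The 5 members with the smallest p for that difference were Rpl11, Rps26, Rpl13, Rpl27a and Rpl9. Rpl11 differed by 0.43 ± 0.13 (unadjusted p = 0.0022, edgeR adjusted p = 0.24). Rps26, a small subunit protein that touches the messenger RNA upstream of the start codon, had 79.1, 85.2 and 94.9 CPM in mLLC against 63.7, 67.2 and 77.9 CPM in mPBS, and 73.9, 82.0 and 101 CPM in fLLC against 74.8, 91.6 and 102 CPM in fPBS. Its male mice separated and its female mice mixed, with a difference between the sexes of 0.41 ± 0.12 (adjusted p = 0.24). The large subunit members Rpl13, Rpl27a and Rpl9 differed by 0.33, 0.40 and 0.33 (adjusted p = 0.27 each).

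Vehicle-treated males had lower ribosomal protein messages than vehicle-treated females. This comparison shares the mPBS mice with the LLC1 comparison in males, and the fPBS mice with that in females, so the values are given side by side and not as separate evidence. In mPBS against fPBS 52 of 79 members were lower and 0 higher by edgeR, where 2.95% of all genes tested were lower and 3.28% higher. The median was -0.32 and all 79 values were below 0. In 18 members all mPBS mice lay below all fPBS mice, against 1.82% of all genes tested, and these included the whole stalk and Rpsa. In 0 members all mPBS mice lay above, against 2.49%. Adipocyte markers summed to 177 to 520 CPM in mPBS against 292 to 957 CPM in fPBS, and 0 of 6 passed (median -1.31). All 6 values were below 0, and all 6 had an unadjusted edgeR p under 0.05, against 20.3% of all genes tested. The part of these markers in the result was not tested.

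The largest called differences were in Rpl27a (-0.48 ± 0.09, edgeR adjusted p = 0.0018), Rplp0 (-0.47 ± 0.08, 0.00052), Rpl13 (-0.45 ± 0.07, 0.00044), Rplp2, Rps2 and Rps10. Rps2, a small subunit protein at the messenger RNA entry (chromosome 17, 24718116 to 24721929, mm10), had 233, 247 and 263 CPM in mPBS against 300, 341 and 360 CPM in fPBS. The 2 groups did not meet, and the difference was -0.45 ± 0.07 (edgeR adjusted p = 0.00016). Rps10, of the small subunit head, differed by -0.44 ± 0.08 (adjusted p = 0.0021). Of these 6, Rplp2 did not pass without any one of 7 vehicle mice, namely mPBS 1-1, 1-2, 2-4 or 2-5 or fPBS 2-1, 2-2 or 2-3 (adjusted p = 0.0513 to 0.0947).

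The count of members lower in vehicle-treated males fell by more than 1.5 times when any of 5 single mice was left out. It was 23 without fPBS 2-2, 25 without fPBS 2-1, 31 without fPBS 2-3, 26 without mPBS 2-5 and 31 without mPBS 2-4, and 23 members were called in every such fit. With the offset for transcript length 25 were lower (all genes 2.55%), with a median of -0.19. Among 877 other tested protein-coding genes with principal transcripts under 1000 bases the median was -0.15, and among 4271 of 4000 bases or more it was 0.06.

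With LLC1 the sexes differed in 1 member. Rps2 had 245, 262 and 277 CPM in mLLC against 297, 314 and 392 CPM in fLLC, without overlap, and was lower in mLLC by edgeR (-0.32 ± 0.07, adjusted p = 0.0037). Rplp0 also passed as lower in 10 of the 24 fits that left out 1 library, with an adjusted p of 0.0283 to 0.0498 in those. Rps2 was the 1 member in which all mLLC mice lay below all fLLC mice, against 1.64% of all genes tested, and in 0 members all lay above, against 1.87%. The other 78 did not pass, where 9.62% of all genes tested were higher and 6.07% lower, and the median over members was -0.03.

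Across the 24 mice the members varied together around their group means. The median correlation between pairs of tested members was 0.79 on log2 CPM after removing the group means, against 0.43 for pairs of mitochondrial ribosomal proteins. The first principal component of the members held 73.1% of that variance. All pairs share libraries and depth. The members least like the mean of the others were Rps4l (-0.09), Rpl3l (0.04), Rpl3 (0.21), Rps10 (0.31) and Rpl27a (0.40). Over all 24 mice, group differences included, the protein-coding genes most like Rpl3l among 14210 were Nudt19 (Pearson r of log2 CPM 0.94), Bckdk (0.94), Capzb (0.94), Aes (0.93) and Fitm1 (0.92). Bckdk encodes the kinase that inhibits branched-chain keto acid breakdown, Capzb an actin-capping subunit and Fitm1 a lipid-droplet protein of muscle.

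Many members have near-identical copies in the genome. A 50-base sequence is shared with another gene for 77 of the 81, and over 50% of such sequences are shared for 44. The 250 pseudogenes named after a member held 3.66% as many counts as the members, but those of Rps27a held 35% as many as Rps27a. Of the tested members with at most 50% shared, 29 of 34 rose in males (median 0.33), as did 41 of 44 with more (median 0.34). The share over all genes tested was 19.5%. The kit marks no strand, and 2 members, Rpl23a and Rpl24, overlap, over at least 10% of their exon bases, a gene with at least 50% as many counts.

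Beside the lists that follow, 19.5% of all genes tested rose and 16.8% fell in males, and 4.97% rose and 4.95% fell in females. Of 7 ribosomal proteins whose names fall outside the pattern, 4 rose in males and 0 passed in females. The 4 were Rps27rt, a retrotransposed copy of Rps27 (0.88 ± 0.14, edgeR adjusted p = 8.45e-05), Fau, which encodes a ubiquitin-like protein fused to a small subunit protein (0.39 ± 0.09), Rpl22l1 (0.36 ± 0.14) and Rps3a1 (0.27 ± 0.08). Rpl22l1 did not pass in 14 of the 24 fits that left out 1 library, its adjusted p reaching 0.17 without mLLC 1-5. Reads of Rps27rt and Rps27 may be divided between the 2 copies in a way the files do not show.

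Other 5′TOP messages, chiefly translation factors, rose in 12 of 15 cases in males (median 0.33) and in 4 of 15 in females (median 0.10). Eef2, the translocation factor, had 1544, 1827 and 2059 CPM in mLLC against 1217, 1428 and 1577 CPM in mPBS, and changed by 0.36 ± 0.08 in males (edgeR adjusted p = 0.00099). In females the 4 were Eif4b (0.50), Eef2 (0.44), Npm1 (0.40) and Eif3f (0.33), and Npm1 did not pass without fLLC 2-4 (adjusted p = 0.0578) or fPBS 1-4 (0.0558). Eef1a1, which brings transfer RNA to the ribosome, rose by 0.28 ± 0.10 in males (adjusted p = 0.036) but did not pass in 7 of the 24 fits that left out 1 library (0.0988 without mLLC 1-5), and Tpt1 did not pass (0.10, adjusted p = 0.28). In vehicle-treated males against females 3 of 15 were lower, Eef1b2 (-0.41), Tpt1 (-0.30) and Rack1 (-0.27), where 2.95% of all genes tested were lower.

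Ribosome biogenesis genes rose in 59 of 73 cases in males, with 0 lower and a median of 0.41, and in 9 of 73 in females (17 without mLLC 1-5 and 5 without fLLC 2-4), with a median of 0.20. The largest in males were Gnl3, the nucleolar GTPase nucleostemin (1.18 ± 0.18, edgeR adjusted p = 6.28e-05), Ddx21, a nucleolar helicase (1.06), and Taf1d, a factor of RNA polymerase I (1.01). Ncl, nucleolin, rose by 0.57 in males (adjusted p = 0.0016) and had 0.28 in females (0.17). Npm1, nucleophosmin, rose by 0.64 in males and 0.40 in females (adjusted p = 0.025), and Fbl, fibrillarin, by 0.24 in males (0.03). Fbl did not pass without any one of mLLC 1-5, 2-1 or 2-4 or mPBS 1-1, 2-4 or 2-5 (adjusted p = 0.0575 to 0.0975). None of the 73 differed between vehicle-treated males and females, while 35 were higher in mLLC than in fLLC. Of all genes tested, 2.95% were lower and 3.28% higher in the first comparison, and 9.62% were higher in the second.

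Noncoding hosts of small nucleolar RNAs, themselves 5′TOP transcripts in part, were tested for 8 of 14 listed. In males 5 rose (median 0.92 over the 8): Snhg12 (1.45), Snhg1 (1.38), Gas5 (1.06), Snhg5 (0.94) and Snhg6 (0.89). In females 0 passed, with a median of 0.28.

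Of 25 regulators of mTORC1 and 5′TOP translation, 8 rose and 4 fell in males (median 0.20), and 5 rose and 0 fell in females (median 0.16). The number that fell in males was near the share over all genes tested (16.8%), of which 19.5% rose. Eif4ebp1, the translation inhibitor that mTORC1 phosphorylates, rose by 2.08 ± 0.28 in males (edgeR adjusted p = 2.17e-05) and 1.12 ± 0.27 in females (adjusted p = 0.012). Sesn1 (2.23) and Ddit4 (2.03), both inhibitors of mTORC1, rose in males. Deptor (-0.60), Castor1 (-0.37), Eif4e (-0.33) and Larp4b (-0.19) fell in males, Deptor and Castor1 also being inhibitors of mTORC1. Larp1, which binds the 5′TOP tract, rose by 0.39 in males (adjusted p = 0.0069) and 0.34 in females (0.045). The other 4 that rose in females were Eif4ebp1, Akt1 (0.61, adjusted p = 0.0499), Tsc1 (0.32) and Mtor (0.31). In females Larp1 did not pass in 12 and Akt1 in 17 of the 24 fits that left out 1 library, and the count of 5 was as low as 1 without fLLC 2-3 or fPBS 2-3.

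Of 12 transcription regulators of ribosome genes, 7 rose in males (median 0.33) and 2 in females (median 0.07), with 0 lower. Myc had 4.80, 8.74 and 11.4 CPM in mLLC against 3.03, 3.19 and 6.58 CPM in mPBS, and 6.01, 7.98 and 10.9 CPM in fLLC against 2.88, 3.19 and 5.57 CPM in fPBS. The female groups were apart and the male groups overlapped. It rose by 1.15 ± 0.23 in males (edgeR adjusted p = 0.0007) and 1.08 ± 0.23 in females (0.0037). Mnt (0.43) and Yy1 (0.37) rose in males, and Yy1 rose in females (0.28). Mnt did not pass without mLLC 2-4 (adjusted p = 0.0522).

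**Figure D5:**
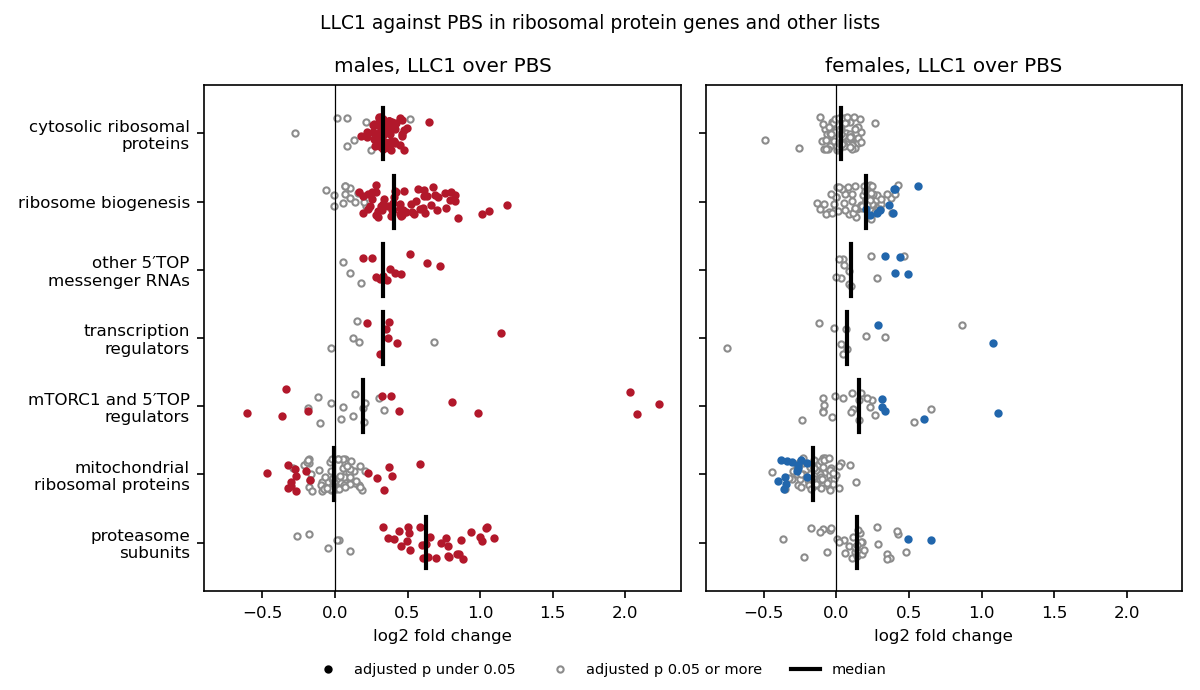
Log2 fold change of LLC1 over vehicle for each tested gene of the lists shown, in males and in females, with the list medians. The median for ribosomal proteins is 0.33 in males and 0.03 in females, and for proteasome subunits 0.63 and 0.14.

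Mitochondrial ribosomal proteins, which build the ribosome of the organelle, are listed for comparison. Of 77 tested, 6 rose and 10 fell in males with a median of -0.00, and 0 rose and 13 fell in females with a median of -0.16. Of all genes tested, 19.5% rose and 16.8% fell in males, and 4.97% rose and 4.95% fell in females. Leaving out 1 library gave as few as 5 lower in males (without mLLC 1-5) and 2 to 22 lower in females, with 2 without fLLC 1-4, 1-5 or 2-3 or fPBS 2-1 or 2-3 and 22 without fLLC 2-5. Proteasome subunits rose in 31 of 37 cases in males (median 0.63) and in 2 of 37 in females, Psmd8 (0.65) and Psmd2 (0.49), with a median of 0.14. Without mLLC 1-5, 9 rose in females. Psmd2 did not pass in females in 6 of the 24 fits that left out 1 library (adjusted p = 0.0502 to 0.0643 in those).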

How the data were processed

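Gastrocnemius poly(A) libraries of 24 mice, 6 per group, were made with an unstranded TruSeq kit and 12 PCR cycles, per the labels' protocols. The submitters' processing notes name CASAVA, STAR, featureCounts and mm10. The deposited values are the authors' raw whole-number counts per gene, with a gene length of unstated kind. Handling of reads that match several places is not given in the sources used here.

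Counts were tested with edgeR 4.0.16 in R 4.3.3: filterByExpr (17773 genes kept), TMM factors (0.924 to 1.10), 4 group means, robust quasi-likelihood F-tests with 20 residual degrees of freedom (common biological coefficient of variation 0.174), Benjamini-Hochberg adjustment over all 17773 genes and calls at adjusted p under 0.05. Standard errors are the log2 fold change divided by the root of F. Levels are CPM of the TMM-scaled library, the raw count over its size in M. Logged levels had 0.5 CPM added. The p-values measure the spread between libraries, 1 per mouse.

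Members, gene lists and cell type markers were chosen with earlier results of these data known, so no list was tested as such. All members could be named. Given in full were paralogue pairs, the 6 largest calls per LLC1 comparison, members not called where most were, the 5 smallest p for the sex difference, the stalk, Rpsa, Rps6 and Rps27a, and the 3 highest and lowest per kilobase. From other lists, the 3 largest calls and a fixed set of names were given. Further genes were named where a count was 5 or fewer, and these were chosen after their values were seen. Some genes that this rule covers are not reported here. Alternatives used DESeq2 1.42.0, limma 3.58.1, other scalings, replicate blocks and leaving out each library. Only the main edgeR fit was tested on simulated counts, for the LLC1 comparison in males and with genes drawn independently.

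Start-site windows and transcripts came from RefSeq (GRCm38.p6) and GENCODE M21, in which 51 of 81 members have the table's exact coordinates. No muscle mass, strength or protein synthesis data were used here.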

Additional observations from a re-analysis of the deposited data

Results flagged for a closer look

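A mouse far from the other 5 of its group was looked for in 30 named members and the summed share, over 124 groups of 6, by Dixon's criterion (the gap to the nearest mouse over the whole range, at the 95% level). Chance marks about 1 in 20 groups, and 7 were marked here. In 5 of them the mouse was mLLC 1-5: Rpl11 stood at 174 CPM (the others at 114 to 132), Rpl13 at 178 (149 to 155), Rplp0 at 581 (500 to 529), Rps20 at 280 (200 to 224) and Rps6 at 214 (150 to 170). These 5 are not independent, since the members vary together. Rplp1 stood at 294 CPM in mPBS 1-4 (the others at 226 to 243) and Rps4l at 2.41 CPM in mPBS 1-3 (1.05 to 1.34). The mouse mLLC 1-5 also had the lowest summed muscle fibre markers of its group, at 133563 CPM, and the highest epithelial markers, at 2.72 CPM. The part of either in its values was not tested.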

How the results depend on the processing

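No member's call changed direction under any alternative, but medians near 0 changed sign. The female median (0.03) was -0.02 with voom sample weights and -0.05 with the full replicate block, and the median between the sexes in LLC1 mice (-0.03) was 0.0037 without fLLC 2-4. Members higher with LLC1 in males numbered 47 to 74 over the settings that kept all libraries, and 59 to 71 when 1 library was left out (median 0.29 to 0.36). The labels do not say whether the title numbers shared within a sex pair the mice. Same-numbered mice had correlations of their deviations of -0.06, -0.02 and -0.01 in males and 0.07, -0.23 and -0.17 in females. So few mice cannot settle it. With a replicate block on the full number 47 rose in males, and with one on the first number 74 did. Over all genes, in either direction, the full block called 2297 and the first-number block 6705, against 6449 in the main fit. The full block compares only mice whose number occurs in both groups of a sex. These were 1-4, 2-4 and 2-5 in males and 1-4, 2-1 and 2-3 in females, and the other mice do not enter its LLC1 effect. No paired analysis was possible between the sexes because males and females share no block. Rpl3l alone was lower in males (1 member) with upper-quartile scaling, voom with sample weights, both replicate blocks and length offsets, and in 0 to 1 when a library was left out. In females, voom with sample weights called 2 higher (Rps27, Rpl3) and 2 lower (Rpl37a, Rpl3l), the female groups alone called 1 higher (Rps27), the full replicate block called 1 higher (Rpl3) and 1 lower (Rpl3l), and length offsets called 28 higher with a median of 0.17. Over all genes these fits called 4006, 2542, 1733 and 1880 in either direction. Without single libraries 0 to 1 were higher and 0 to 1 lower in females (median 0.00 to 0.10). For the sex difference in the LLC1 effect, the replicate block on the first number called 47 members higher, length offsets gave a median of 0.18, and leaving out libraries gave 0 calls with medians of 0.24 to 0.34. In vehicle-treated mice, length offsets left 25 lower (median -0.19), and leaving out libraries gave 23 to 60 lower and 0 higher (median -0.35 to -0.27). Total-count scaling moved the median of all genes to -0.11 there, and that of the members to -0.42. In LLC1 mice, voom with sample weights called 1 higher (Rpl37a). Upper-quartile, total-count and 10-most-abundant scaling, DESeq2 and length offsets each called 2 lower (Rps2 and Rplp0), and leaving out libraries gave 1 to 2 lower and 0 higher (median -0.09 to 0.00). The cause of these shifts was not tested. The members' median varied between mice of a group with an SD of 0.126 on the log2 scale, which limits what 6 mice can resolve at these fold changes.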
